A study of Mus musculus with 2 samples.

Results

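The genes described are 10 JmjC histone demethylases, Kdm3a, Kdm3b, Kdm4a, Kdm4b, Kdm4c, Kdm5a, Kdm5b, Kdm2a, Kdm2b and Kdm6b. They are 10 of 37074 named targets on an Agilent whole-genome mouse array and were found as the 30 probes whose gene name in the scanner files equals one of these symbols. The genes were chosen with earlier results of the same contrast known, so every difference below is a description and none was tested. The series compares 2 arrays hybridised with total RNA of mouse cells. The agent is S180 for 1 array and DMSO, a common solvent, for the other. The labels state neither the cell type, the dose nor the time, and they say nothing of what S180 is. With 1 array in each group no condition has a replicate and no p-value is given, and precision is limited by this number.

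JmjC demethylases remove methyl groups from lysines of histones. They are dioxygenases: each round of the reaction uses molecular oxygen and 2-oxoglutarate at a bound iron atom, which releases succinate, carbon dioxide and formaldehyde. They share these needs with the prolyl hydroxylases that sense oxygen, and Kdm3a and Kdm4b are well-known target genes of the hypoxia-inducible factor HIF-1. The Kdm3 and Kdm4 proteins act mainly on H3K9, a mark of silent chromatin, the Kdm5 proteins on H3K4, a mark of active promoters, the Kdm2 proteins on H3K36 and Kdm6b on H3K27, the mark set by Polycomb.

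All 30 demethylase probes, each present as 1 spot, were well above background on both arrays. Each signal was taken as log2 and set relative to the 75th percentile of its own array, and a difference is the S180 value minus the DMSO value. The only error measured on the arrays is the spread of replicate spots of other probes. With measured probes split by signal into bright, middle and dim groups of equal size, the SD of a difference between single spots was 0.0419 for bright probes, from 264 replicated ones. It was 0.0787 for middle probes, from only 5, and 0.277 for dim probes, from 10. The scanner software's own error model gave a standard error of 0.204 for the difference of a bright probe such as that of Kdm3a. It was wider than the spot SD for every bright and middle demethylase probe and narrower for 7 of the 8 dim ones. Neither covers variation between cultures, RNA extractions or labelling reactions. On the arrays, 61.91% of non-control spots were well above background with S180 and 60.57% with DMSO. The DMSO array was brighter, so that the median measured gene lay at 0.00 after scaling, at -0.28 without scaling and at -0.35 when 8 spike-in transcripts set the scale.

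The listed melanocyte markers were well above background on both arrays for 7 of 7 genes, with differences from -0.12 to 0.26 and summed signals of 800000 with S180 and 868100 with DMSO. All 5 fibroblast markers were also above background, and their summed signal was 1629 with S180 and 2745 with DMSO. Of the 4 epithelial markers Krt8 and Krt18 failed the background test on both arrays, and the summed signal was 49.1 against 89.5. The macrophage list had 5 of 6 members above background, with Adgre1 the exception, at sums of 5431 and 5648. All 4 neuron markers were above background, at sums of 10020 and 10550, as were 3 of 5 T cell markers, at 2325 and 2580. For B cell, endothelial and muscle markers the sums were 92.3 and 82.6, 89.4 and 122.7, and 183.8 and 205.4. The part of other cell types in the differences below was not tested.

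Across the family the largest differences belonged to Kdm4b, Kdm3a and Kdm5b, which were higher in the S180 array, followed by Kdm2a. On its brightest probe Kdm4b was 1.98-fold higher, Kdm3a 1.82-fold and Kdm5b 1.45-fold. Kdm3b was slightly lower on both of its probes, and Kdm4c and Kdm5a lay close to zero on their brightest probes. Of the 30 demethylase probes 9 were at least 1.5-fold higher in S180, a log2 difference of 0.585, and these belonged to Kdm3a (2 probes), Kdm4b (1), Kdm5b (3), Kdm2a (2) and Kdm5a (1). Among all 32680 measured probes 3.21% were 1.5-fold higher. None of the 30 was 1.5-fold lower, beside 1.67% of all measured probes, and none was 2-fold higher, beside 0.63%. Counted by gene on the brightest probe, 2 of 10 genes were 1.5-fold higher and 0 lower, where 3.08% and 1.71% of the 20777 measured genes were. The genes were chosen by this contrast, so these counts say nothing further about the family. The probe differences had a median of 0.40 and 25 of 30 lay above 0, and the median over all measured probes was 0.003 with 50.6% above 0. Kdm3a, Kdm4b, Kdm5b and Kdm2a lay above 0 on every probe under each scaling tried, and the other genes with a positive difference had probes below 0 on the spike-in scale. On that scale the brightest Kdm2a probe stood at only 0.0151, less than its spot SD of 0.0419. The dimmer Kdm4b probe stood at 0.0491, less than its spot SD of 0.0787. Such values are not resolved from 0.

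**Figure D1:**
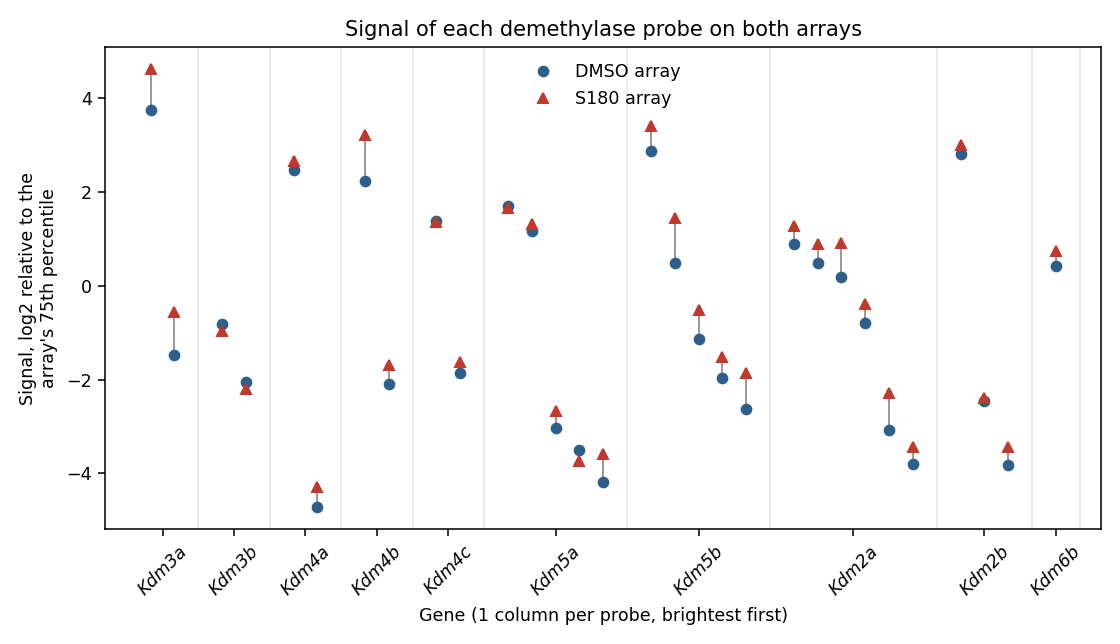
Signal of each of the 30 demethylase probes as log2 relative to the array's 75th percentile, with circles for the DMSO array and triangles for the S180 array (1 array each) and a grey line joining the values of a probe. The triangle stands highest above the circle for the brightest probe of Kdm4b (3.22 against 2.24), followed by the second probe of Kdm5b and both probes of Kdm3a. It stands below the circle for the fourth probe of Kdm5a (-3.73 against -3.51), both probes of Kdm3b and, slightly, the brightest probes of Kdm5a and Kdm4c. Signals of different probes are not comparable as transcript levels.

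**Figure D2:**
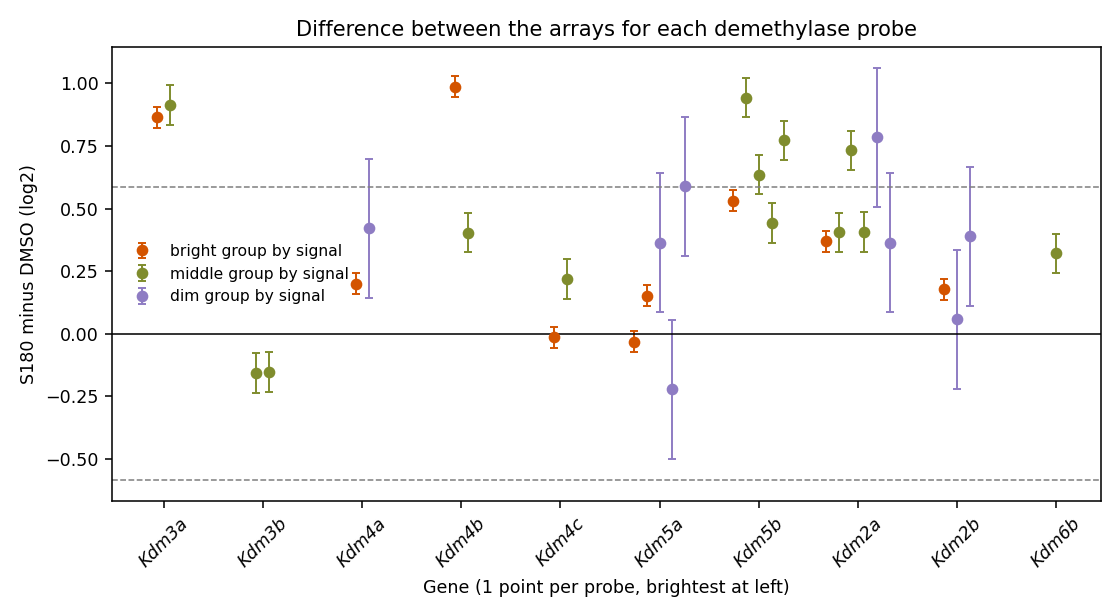
Difference between the arrays (S180 minus DMSO, log2) for each probe, by gene, with the brightest probe at the left and colours for the bright, middle and dim groups of signal. Bars are 1 SD of a difference between single spots in that group, and dashed lines mark 1.5-fold. Both Kdm3a probes, 1 of 2 Kdm4b, 3 of 5 Kdm5b, 2 of 6 Kdm2a and 1 of 5 Kdm5a probes lie above the upper line. No probe lies below the lower one.

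Promoter sequences are shown for 3 of the genes, because HIF binds the short core ACGTG or GCGTG. Kdm3a and Kdm5b were picked, after their values were seen, as genes that stood high in S180 and Kdm4c as one near zero. The RefSeq promoter table (GRCm38.p6) held 11 start sites for 5 of the 10 genes, namely Kdm3a (3), Kdm4a (1), Kdm4c (2), Kdm5b (1) and Kdm2b (4). In the 250 bases before each start, on both strands, either core occurred in 7 of 11 (63.6%), and in 38.6% of all 32851 promoters in the table. Kdm2b accounted for 4 of the 7, with GCGTG before each of its starts, so the share rests largely on 1 gene. Its brightest probe differed by only 0.18 and stood at -0.18 on the spike-in scale. Some of these 11 windows overlap, and those before Kdm2b starts 2 and 4 are nearly the same (chr5:122900368-122900617 and chr5:122900351-122900600). Of the promoters within the range of GC content of the 11, 41.8% held a core. That range, 39.6% to 80.8%, takes in 28951 of the 32851 promoters, so it is not a match on GC content. ACGTG, the stricter form, occurred in 2 of the 11, beside 16.6% of all promoters. A match of 5 letters is a description of the sequence and not a binding site.

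Kdm3a removes mono- and dimethylation from H3K9 and is known for roles in spermatogenesis and fat metabolism. Its brightest probe, on chromosome 6 from 71539112 to 71539171 on the minus strand (build mm9, as for all probes), had a signal of 15178 with S180 and 10129 with DMSO. After scaling these were 4.62 and 3.76, a difference of 0.86. Its other probe lies 14.1 kb upstream and gave 416.6 and 268.7, a difference of 0.91, or 1.88-fold. Both probes were thus higher with S180 by nearly the same amount, although 1 of them was far dimmer. The difference was 20.6 times the spot SD on the bright probe and 11.6 times on the other. The scanner's error model gave wider standard errors, 0.204 and 0.205. In the bright group 0.854% of the measured probes had a higher difference than the bright Kdm3a probe. On the spike-in scale the values were 0.51 and 0.56, still above 0 but short of 1.5-fold. The promoter before the first listed start of Kdm3a held 1 core, GCGTG on the strand of the gene, at positions -27 to -23 from the start. The windows before the other 2 starts of Kdm3a held none. It is printed with the core in capitals, 5′ to 3′ on the minus strand, chr6:71632918-71633167 of GRCm38.p6.
Kdm3a: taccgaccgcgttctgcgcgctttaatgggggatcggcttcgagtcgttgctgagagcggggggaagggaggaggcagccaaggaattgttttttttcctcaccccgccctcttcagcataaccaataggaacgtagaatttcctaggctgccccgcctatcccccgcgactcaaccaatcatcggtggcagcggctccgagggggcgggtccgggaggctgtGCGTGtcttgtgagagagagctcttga

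Kdm3b, the close relative of Kdm3a with the same substrate, went the other way. The probe with the higher signal, on chromosome 18 from 34964114 to 34964173, had 314.2 with S180 and 425.5 with DMSO, a difference of -0.16. The other probe, 33.8 kb downstream, had 134.5 and 181.6, a difference of -0.15. The probes of Kdm3b therefore both read about 1.11-fold lower in S180, which is 1.99 and 1.93 times the spot SD of the middle group and within the 0.205 and 0.208 of the scanner's error model. Among all measured probes 77.2% had a higher difference than the first of them. On every scaling tried both probes of Kdm3b lay below 0, down to -0.51 on the spike-in scale. On the gene level the pair of H3K9 mono- and dimethyl erasers thus differed in direction, 1.82-fold higher for Kdm3a and 1.11-fold lower for Kdm3b.

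The Kdm4 proteins remove trimethylation from H3K9 and H3K36. Kdm4b had the largest difference of the 30 probes. Its probe on chromosome 17 from 56542216 to 56542275 had a signal of 5745 with S180 and 3525 with DMSO, a difference of 0.99 or 1.98-fold, which 0.615% of the measured probes in the bright group exceeded. A second Kdm4b probe lies 12.3 kb upstream, was designed on a cDNA clone and gave 191.9 and 176.2, a difference of 0.40. Both were higher with S180, but they disagreed by 0.58, where genes with 2 measured probes had a median disagreement of 0.13 and 10% of them more than 0.43. On the spike-in scale the brighter probe stood at 0.63, still past 1.5-fold, and the dimmer one at 0.05.

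Kdm4a, a paralog with the same substrates, had signals of 3932 with S180 and 4160 with DMSO on its brighter probe (chromosome 4, 117809645 to 117809704). The scaled difference was 0.20, 4.77 times the spot SD but within the 0.204 of the scanner's error model. It turned to -0.08 without scaling and to -0.16 on the spike-in scale. Its dim probe, at 31.3 and 28.4, stood only 1.52 spot SDs above 0, with a difference of 0.42. Signals on that probe were near the dimmest that passed the software's background test, which were 13.1 for S180 and 16.5 for DMSO.

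Kdm4c, the other member of the Kdm4 group listed, was the nearest to zero. Its brighter probe, on chromosome 4 from 74051459 to 74051518, had 1592 with S180 and 1954 with DMSO, a difference of -0.01 or 0.344 spot SDs. The probe 74.9 kb upstream gave 199.0 and 207.7, a difference of 0.22. The sign of the brighter probe depended on the scaling, with 0.01 under cyclic loess and -0.37 on the spike-in scale. The Kdm4 genes thus spread from near no difference in Kdm4c to nearly 2-fold in Kdm4b. The promoter before the second listed start of Kdm4c held the most cores of the 11, and that before its first held none. There were 6, of which 4 were ACGTG within the palindrome CACGTG, also the letters of an E-box, where 1 site is counted on both strands. It is printed with the cores and their overlaps in capitals, on the plus strand, chr4:74251629-74251878 of GRCm38.p6.
Kdm4c: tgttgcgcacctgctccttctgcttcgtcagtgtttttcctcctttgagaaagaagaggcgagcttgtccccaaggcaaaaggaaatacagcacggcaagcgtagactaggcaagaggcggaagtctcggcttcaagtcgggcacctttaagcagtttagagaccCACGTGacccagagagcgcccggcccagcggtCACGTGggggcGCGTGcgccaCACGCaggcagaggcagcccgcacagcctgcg

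Kdm5b removes di- and trimethylation from H3K4 and acts as a transcriptional corepressor. It has 5 probes on the array, all higher with S180. The brightest, on chromosome 1 from 136528046 to 136528105, had 6564 with S180 and 5520 with DMSO. Its difference was 0.53, or 12.7 spot SDs, beside an error-model standard error of 0.204. The next, 4.34 kb upstream and designed on an Ensembl transcript, had 1670 and 1056, a difference of 0.94 or 1.92-fold. The other 3 gave 433.8 against 339.2 (0.64), 214.1 against 191.3 (0.44) and 169.5 against 120.6 (0.77). Thus every Kdm5b probe was higher in S180, and 3 of 5 by 1.5-fold, although the brightest was not among those. The range over its probes, 0.50, was near the median of 0.41 for genes with 5 measured probes. On the spike-in scale all 5 remained above 0, between 0.09 and 0.59. Its promoter held an ACGTG at positions -229 to -225 and a GCGTG at -19 to -15 from the start, both on the strand of the gene. It is printed with both in capitals, on the plus strand, chr1:134559928-134560177 of GRCm38.p6.
Kdm5b: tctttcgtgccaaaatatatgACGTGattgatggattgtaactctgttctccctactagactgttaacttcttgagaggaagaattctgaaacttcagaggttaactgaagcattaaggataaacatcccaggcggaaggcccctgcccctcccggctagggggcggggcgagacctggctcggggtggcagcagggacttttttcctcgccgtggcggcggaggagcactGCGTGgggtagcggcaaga

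Kdm5a, the paralog of Kdm5b first found as a partner of the retinoblastoma protein, showed no common direction over its 5 probes. The brightest, on chromosome 6 from 120381867 to 120381927, had 1963 with S180 and 2438 with DMSO, a difference of -0.03, and the next had 1538 and 1683, a difference of 0.15. The 3 dim probes gave 0.36, -0.22 and 0.59. The last of these, with signals of 50.9 and 41.1, is the 1 Kdm5a probe counted as 1.5-fold higher, 2.12 spot SDs above 0. It was under 1.5-fold with every other scaling tried, for example 0.53 with quantile normalization, and 0.37 with the normexp background correction. The bright probes of Kdm5a moved to -0.39 and -0.20 on the spike-in scale. By their brightest probes the H3K4 erasers thus differed, with Kdm5b at 0.53 and Kdm5a at -0.03.

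Kdm2a removes mono- and dimethylation from H3K36 and binds unmethylated CpG islands through a zinc finger. All 6 of its probes were higher with S180. The brightest, on chromosome 19 from 4318137 to 4318196, had 1490 with S180 and 1400 with DMSO, which after scaling differed by 0.37 or 1.29-fold. Another 3 probes gave between 0.36 and 0.41. The remaining pair stood higher, at 0.73 (signals 1161 and 848.8) and at 0.78 (126.5 and 89.3), and both were past 1.5-fold. The first was 9.31 spot SDs above 0. The second is a dim probe, 2.825 spot SDs above 0, and gave 0.55 with the normexp background correction, short of 1.5-fold. These 2 probes lie 77.1 and 41.4 kb upstream of the last probe of the gene, and the others within 35.7 kb of it. On the spike-in scale the 4 lower probes lay between 0.01 and 0.05 and the pair at 0.38 and 0.43.

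**Figure D3:**
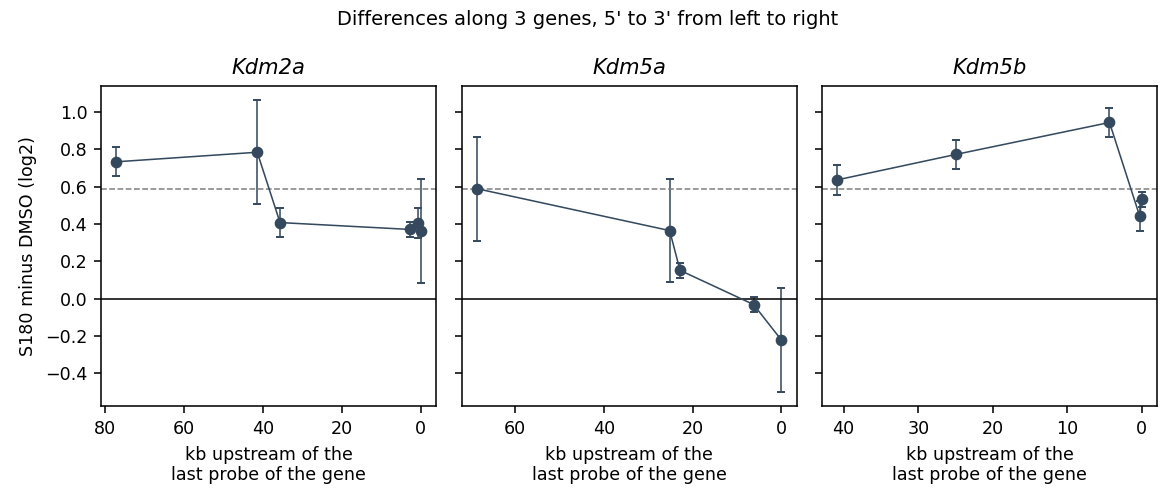
Difference (S180 minus DMSO, log2) of each probe of Kdm2a, Kdm5a and Kdm5b against its distance in kb upstream of the last probe of the gene, so that each gene reads from 5′ to 3′ from left to right. Bars are 1 SD of a difference between single spots in the probe's signal group, and the dashed line marks 1.5-fold. In Kdm2a the 2 probes farthest upstream stand at 0.73 and 0.78 and the other 4 between 0.36 and 0.41.

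Kdm2b, which recruits a variant Polycomb complex to CpG islands, had a brightest probe on chromosome 5 from 123320688 to 123320747 with signals of 4922 and 5287. The scaled difference was 0.18, or 1.13-fold higher in S180, within the 0.204 of the scanner's error model. It turned to -0.18 on the spike-in scale. The dim probes of Kdm2b gave 0.06 and 0.39, 0.208 and 1.40 spot SDs from 0. None of the 3 reached 1.5-fold.

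Kdm6b, an H3K27 eraser that is induced by inflammatory signals in macrophages, has a single probe. It spans 145 bases on chromosome 11 from 69213554 to 69213698, more than its 60 bases, so that its genome match holds a gap. Its signal was 1037 with S180 and 1008 with DMSO, a scaled difference of 0.32. This was 4.09 spot SDs, beside a standard error of 0.204 in the scanner's error model, and turned to -0.03 on the spike-in scale.

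**Figure D4:**
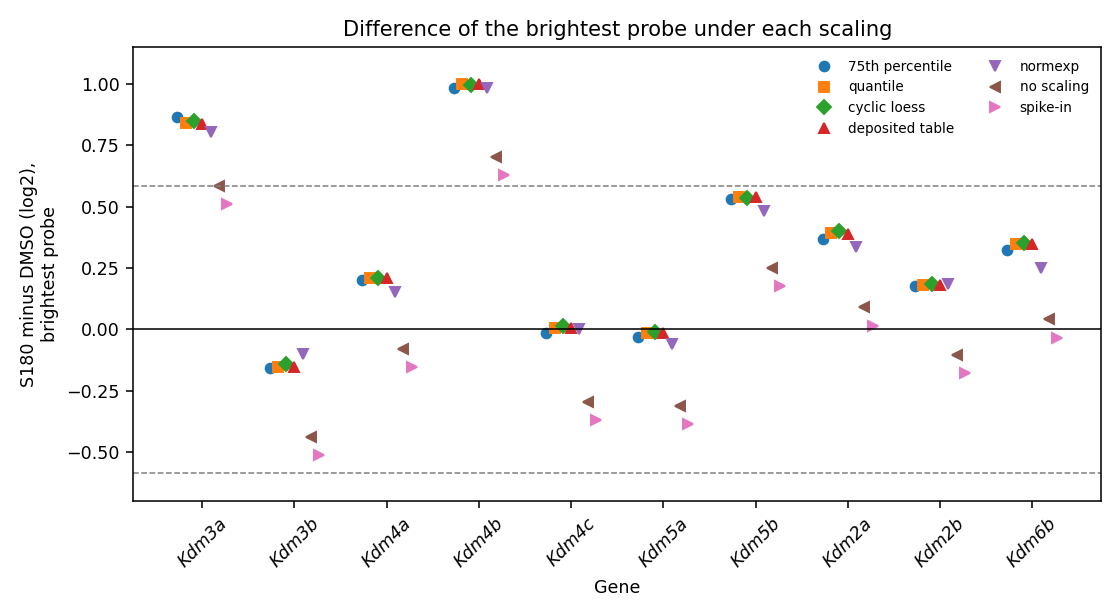
Difference of the brightest probe of each gene (S180 minus DMSO, log2) under 7 settings of scaling or background correction, with dashed lines at 1.5-fold. Kdm3a, Kdm4b, Kdm5b and Kdm2a stay above 0 under all of them, although Kdm2a is at only 0.0151 on the spike-in scale. Kdm3b stays below 0, and Kdm4a, Kdm2b and Kdm6b turn below 0 on the spike-in scale.

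The order of the genes by the difference on the brightest probe was Kdm4b (0.99), Kdm3a (0.86), Kdm5b (0.53), Kdm2a (0.37), Kdm6b (0.32), Kdm4a (0.20), Kdm2b (0.18), Kdm4c (-0.01), Kdm5a (-0.03) and Kdm3b (-0.16). The neighbours Kdm2a and Kdm6b differed by less than 0.0787, the spot SD of the middle group, to which the Kdm6b probe belongs. Kdm4a and Kdm2b, and Kdm4c and Kdm5a, differed by less than 0.0419, that of the bright group. These SDs are for 1 difference and not for a gap between 2, and the scanner's error model gave 0.204 for each of these probes. The other steps of the order are thus not shown to be resolved. Levels of different genes are not ranked, since the signal of a probe depends on its sequence. With 2 arrays the pattern of a gene is 1 difference, and no genes are named for a likeness to these.

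Other JmjC proteins gave a frame for the family, and 19 of the 21 listed were measured. On the brightest probe the median difference was -0.04. Of the 19, 1 was 1.5-fold higher and 0 were lower, beside 3.08% and 1.71% of all measured genes. The 1 was Jmjd6, a JmjC lysyl hydroxylase of splicing proteins, with signals of 31358 for S180 and 20656 for DMSO, or 1.84-fold. Its probes gave 0.88 to 1.06, and the brightest stood at 0.53 on the spike-in scale. Among demethylases closest to those described, Kdm7a stood at 0.41, Phf8 at 0.21, Jmjd1c at 0.21, Kdm5c at 0.15 and Kdm6a at 0.09. Phf2 at -0.06, Kdm5d at -0.12 and Hr at -0.23 lay on the other side. On the spike-in scale the brightest probes of all of these but Kdm7a were below 0. Over all measured probes Phf8 ranged from 0.07 to 0.71, which is past 1.5-fold, and Jmjd1c from 0.12 to 0.44. Kdm6a ranged from 0.09 to 0.34, Kdm5c from 0.15 to 0.21 and Kdm7a from 0.23 to 0.41. At the low end, Tyw5, which acts on a modified base of tRNA, had -0.28. Hif1an, the asparaginyl hydroxylase of HIF, had -0.03. Kdm4d and Uty failed the background test on both arrays.

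Enzymes that oxidise methyl groups of nucleic acids by the same chemistry were also counted by the brightest probe. Past 1.5-fold were 1 of 3 TET proteins and 1 of 5 AlkB oxygenases, where 3.08% of all measured genes were as high. Of the TET dioxygenases, which oxidise methylcytosine in DNA, Tet1 had 314.7 with S180 and 206.2 with DMSO, 0.89 or 1.85-fold, but its probes ranged from 0.23 to 0.89. Tet2 stood at 0.38 and Tet3 at 0.44, and on the spike-in scale at 0.03 and 0.09. The probes of Tet2 ranged from 0.38 to 0.62 and those of Tet3 from 0.37 to 0.44. Of 5 AlkB oxygenases Alkbh5, an eraser of methyladenosine in RNA and a known hypoxia-induced gene, had 15385 and 11918, 0.65 or 1.57-fold. On the spike-in scale Tet1 stood at 0.54 and Alkbh5 at 0.29. The median of the AlkB list was -0.07, with Alkbh1 the lowest at -0.26. Fto stood at 0.09, with its probes ranging from 0.01 to 0.75. The demethylases that use flavin in place of iron, Kdm1a and Kdm1b, stood at 0.03 and -0.36, the former turning to -0.33 on the spike-in scale.

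Genes listed as writers of the same marks were methyltransferases and also subunits of their complexes, such as Rbbp5. On their brightest probes none of the 30 measured was 1.5-fold apart in either direction. Beside this, 3.08% of all genes were higher and 1.71% lower. Dimmer probes did pass 1.5-fold, lower for Setd2 (-0.78) and Setdb1 (-0.72) and higher for Setd1a (0.64). The values that follow are again for the brightest probes. With spike-in scaling 6 of the 30 were 1.5-fold lower, and 4 without scaling. Their median difference was -0.09, and 9 of 30 lay above 0. By mark the medians were -0.09 for H3K9, -0.09 for H3K27, -0.10 for H3K4 and -0.08 for H3K36. The lowest were Setd1b, an H3K4 methyltransferase, at -0.51 with another probe at 0.47, and Nsd1, an H3K36 methyltransferase, at -0.43. The highest was Rbbp5, a subunit of the H3K4 complexes, at 0.18, which turned to -0.18 on the spike-in scale, where all 30 lay below 0. On H3K9 the brightest probes of the 7 writers lay between -0.30 and 0.14, and their other probes reached from -0.72 (Setdb1) to 0.19 (Suv39h1). By brightest probe, the erasers Kdm3b (-0.16) and Kdm4c (-0.01) lay between -0.30 and 0.14 and Kdm4a (0.20) just above. Kdm3a (0.86) and Kdm4b (0.99) lay further above.

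Enzymes that make or use 2-oxoglutarate, the cosubstrate of these dioxygenases, or succinate or fumarate, which inhibit them, held 0 of 20 genes past 1.5-fold. Their median was -0.05. The highest was Idh1, which makes 2-oxoglutarate in the cytosol, at 0.32 (-0.04 on the spike-in scale). By the brightest probe, partners of Kdm2b had a median of 0.01. The Polycomb protein gene Cbx8 was the 1 of 8 past 1.5-fold, at 0.65 (0.30 on the spike-in scale), with another probe at 0.16. Ring1 was the lowest at -0.21, and Bcorl1 stood at 0.33 with another probe at 0.76. Of 7 measured partners of the Kdm5 proteins none was past 1.5-fold. They ranged from Hdac2 at -0.34 to Rbpj at 0.21, which was -0.15 on the spike-in scale. The 3 genes Paxip1, Kdm6a and Ncoa6 lay between -0.20 and 0.09. Over all these lists 4 of 96 distinct measured genes were 1.5-fold higher on the brightest probe and 0 were lower. Of all measured genes 3.08% were higher and 1.71% lower. With spike-in scaling 0 of the 96 were higher and 13 lower.

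**Figure D5:**
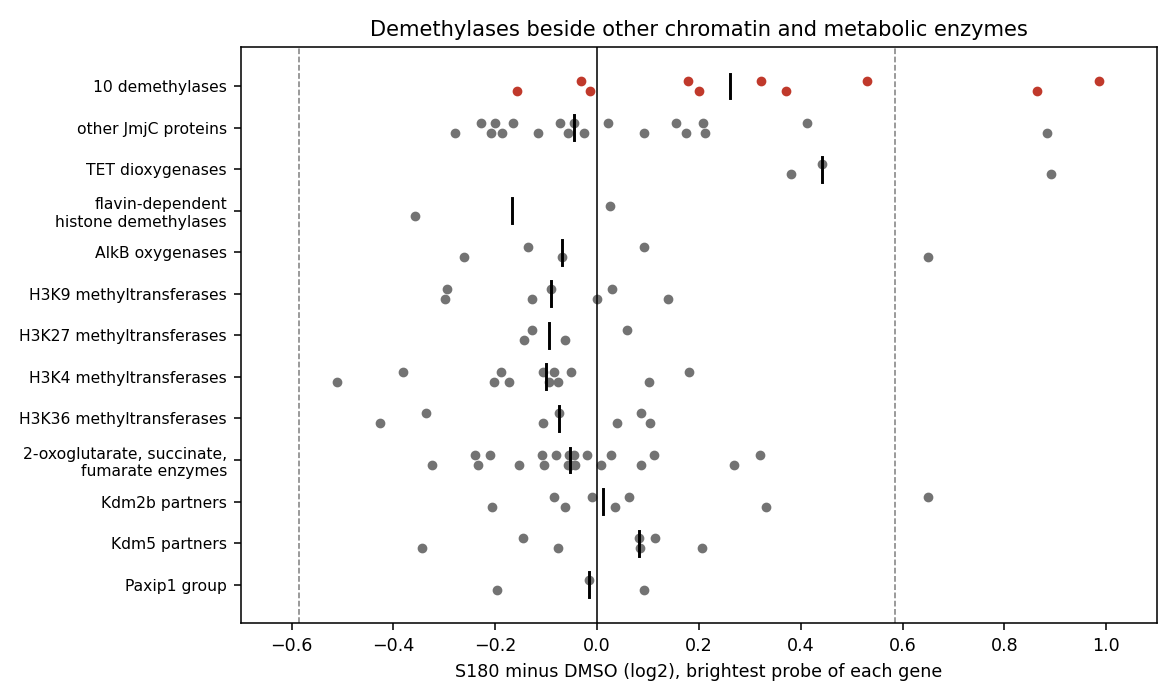
Difference of the brightest probe of each measured gene (S180 minus DMSO, log2), with 1 row per list, the 10 demethylases in red and a black bar at the median of each list. Dashed lines mark 1.5-fold. The 30 genes of the methyltransferase lists, which include complex subunits, lie between -0.51 and 0.18. Jmjd6, Tet1, Alkbh5 and Cbx8 are the 4 grey points beyond the upper line.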

How the data were processed

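The intensity values (processed signal, its model error, raw mean and median local background) are those deposited in the authors' Agilent Feature Extraction 10.7.1.1 files, in 1 colour on build mm9, per the file headers. The processed intensity is background-subtracted and detrended, with no scaling between arrays. The deposited log2 table of both samples, from the authors, served as an alternative. The labels and its header do not state how it was made.

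Control spots and flagged outliers were left out (120 non-control spots with S180 and 195 with DMSO). Spots of a probe were averaged as log2, and the 75th percentile over 56605 probes was subtracted. A probe was measured when well above background and not saturated on both arrays. A gene is its probe with the highest mean signal. Bright, middle and dim groups are equal parts of the measured probes by mean signal. The spot SD came from probes of 10 spots with at least 8 kept. Names are those in the files. The counting was checked on simulated data. All 10 genes are named with their probes, and of other lists mainly the genes past 1.5-fold, the highest and the lowest, although any listed gene may be named. The lowest of 1 list is not reported here. The genes, lists and tests were chosen with earlier results of these data known. R 4.3.3, limma 3.58.1 and Python 3.11.15 were used.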

Additional observations from a re-analysis of the deposited data

How the results depend on the processing

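Of the 30 demethylase probes, 9 were at least 1.5-fold higher in S180. There were 8 under each of 4 settings (quantile normalization, cyclic loess, scaling on the measured median, the deposited table), 6 with normexp, 3 without scaling and 2 on the spike-in scale. The 3 were probes of Kdm4b, Kdm5b and Kdm3a, and the 2 were those of Kdm4b and Kdm5b. With a 2-fold threshold the count was 0 and at a log2 threshold of 0.32 it was 19. The count of probes 1.5-fold lower was 0 under every setting tried. The median over the 10 genes, 0.26, was 0.22 with normexp and 0.32 when the probes of each gene were averaged, and it turned to -0.0203 without scaling and to -0.0944 on the spike-in scale, where the median of all measured genes stood at -0.28 and -0.35. Scaling by 1 factor per array moves every probe alike and leaves the distance to the median gene at 0.26. In the other lists 4 genes were past 1.5-fold on the brightest probe, all higher. There were 9 without scaling (2 higher, 7 lower), 13 on the spike-in scale (0 higher, 13 lower), 0 at 2-fold and 15 at the lower threshold. Across all measured probes, 1048 were 1.5-fold higher and 545 lower in the main setting, 877 and 718 with quantile normalization, 397 and 82 with normexp, 339 and 2972 without scaling, and 255 and 4780 on the spike-in scale. Naming probes by RefSeq accession or older symbols added 1 dim Kdm6b probe at 0.20 and left the count at 9. No paired analysis was possible because each group holds 1 array. The difference of a dim probe has a spot SD of 0.277, from only 10 replicated probes. Values under about that size on such probes are not resolved, and those little above it are not shown to be.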

Other observations

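Several demethylase genes gave different values along their length, a pattern chosen after the values were seen. Kdm5a, ordered from its most upstream probe to its last, gave 0.59, 0.36, 0.15, -0.03 and -0.22 over 68.6 kb. The 0.59, 0.36 and -0.22 are from dim probes, 2.12, 1.31 and 0.80 spot SDs from 0. With normexp the outer 2 probes gave 0.37 and -0.01, so the order along Kdm5a is not shown to be resolved. Kdm2a gave 0.73 and 0.78 on the upstream pair, then 0.41, 0.37, 0.40 and 0.36. Kdm5b gave 0.64, 0.77, 0.94, 0.44 and 0.53. In 7 of the 9 genes with several probes the most upstream probe had a higher difference than the last, by a median of 0.21 over the 9, while Kdm4b went the other way by 0.58 and the probes of Kdm3b differed by 0.0044. Over all 4227 genes whose outer probes lie 5 kb or more apart, the upstream probe was higher in 61.9% with a median of 0.07, and in 59.4% of 2068 genes whose outer probes were both outside the dim group. Upstream probes were also dimmer, by a median of 3.21 (log2) over the 4227 genes. The part of signal, isoforms or introns in this was not tested, and exons were not annotated here.

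Between the outermost probes of Kdm5a, 2 further probes on the same strand carry other names. D230014I24Rik had 313.2 with S180 and 264.2 with DMSO, a difference of 0.53, and BY676377 had 360.8 and 348.0, a difference of 0.33. Both values lie among those of the upstream Kdm5a probes. The probe of AK081935 between the Kdm2a probes was not well above background on either array.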
